A study of Homo sapiens with 4 samples.

Results

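The genes described here are 9 members of the pericellular proteolysis system of skin: the matrix metalloproteinases MMP1, MMP9, MMP10 and MMP14, the tissue inhibitors TIMP1 and TIMP2, the plasminogen activators PLAU and PLAT, and the urokinase receptor PLAUR. They were found by gene symbol alone, by a rule that uses no measured value, though the set was named with earlier results of these data known. All 9 symbols were found once each among the 44591 rows of the count tables, of which 19233 are protein-coding. RNA sequencing was performed on 4 replicates of HaCaT, a spontaneously immortalized keratinocyte line from human skin, without any treatment and without a comparison group. According to the labels the cells grew in Dulbecco's modified Eagle medium with 12% fetal bovine serum at 37 °C and 5% CO2, and the labels name no genetic change and no added agent. HaCaT is 1 line. The study calls the libraries biological repeats, and the labels do not state whether the replicates came from separate cultures. The p-values below therefore measure only the spread between these 4 libraries.

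Matrix metalloproteinases are zinc enzymes that cut collagens, laminins and other proteins of the extracellular matrix, and most are made as inactive precursors that another protease must open. TIMPs bind the active enzymes and block them. Plasminogen activators turn plasminogen into plasmin, which degrades fibrin and opens several metalloproteinase precursors, and keratinocytes at a wound edge are known to use both systems when they leave the basement membrane and cross the provisional matrix.

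Levels are given as TPM, which divides the count of each gene by its length and scales the protein-coding genes of a library to 1000000. The libraries held between 17056035 and 73082279 counts, with replicate 1 the deepest. Replicate 1 also stood apart in composition. Protein-coding genes took 76.1% of its counts against 95.3% to 96.4% in the others, and its rank correlation with the other replicates across genes was 0.754 to 0.780, while the others had 0.944 to 0.967 among themselves. For this reason the mean levels of the 9 genes and their order are also given without it. The labelled cell type was checked against markers. All 10 keratinocyte markers had a mean above 1 TPM, among them KRT14, the basal keratin, with 6375 to 7642 TPM. Several markers moved with replicate 1. It was the highest for 6 of the 10, such as DSG3 with 578 TPM against 39.9 to 139 TPM. ITGA6 had 1022 TPM there against 113 to 294 TPM. Replicate 1 was the lowest for 2, such as ITGB4 with 105 TPM against 186 to 471 TPM. These counts hold for this scaling, and no share of all detected genes stands beside them. With TPM over all rows, noncoding RNA included, the median detected gene of replicate 1 moved by -1.56 on the log2 scale. Of the fibroblast markers 2 of 7 had a mean above 1 TPM (COL1A1, and LUM with 1.23 TPM or 0.530 TPM without replicate 1, with a summed level of the list of 5.2 to 9.7 TPM), of the leukocyte markers 1 of 7 (CD14, summed level 3.68 to 9.37 TPM), of the melanocyte markers 1 of 5 (PMEL, summed level 1.60 to 3.52 TPM) and of the endothelial markers 0 of 5 (summed level 0.859 to 2.36 TPM). PECAM1, KDR, TEK, AIF1 and TYR were at 0 counts in every replicate. Other markers with a mean below 1 TPM passed 1 TPM in a single replicate. In replicate 1 these were VWF (2.36 TPM, 507 counts) and DCN (1.63 TPM, 186 counts). In replicate 3 they were COL1A2 (2.10 TPM) and COL3A1 (2.72 TPM), and in replicate 4 CDH5 (1.49 TPM). The part of other cell types in the levels below was not tested.

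All 9 genes had a mean above 1 TPM, the limit used here for detection, which 63.3% of the protein-coding genes passed. Their means covered more than 2 orders of 10, from MMP14 at percentile 95.3 of the detected protein-coding genes down to MMP9 at percentile 2.19.

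**Figure D1:**
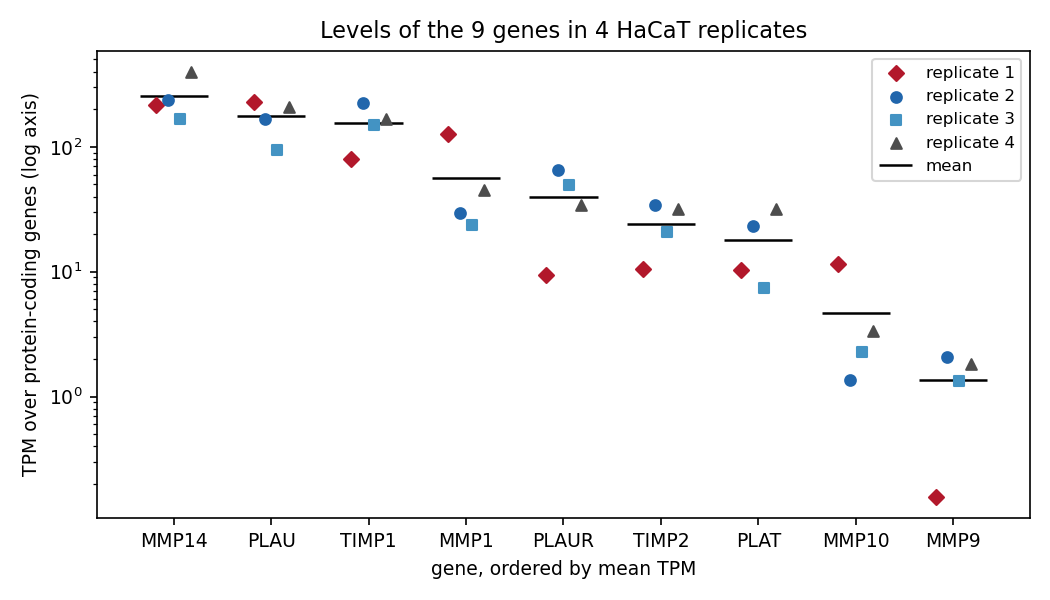
TPM over protein-coding genes (log axis) of the 9 genes in each of the 4 HaCaT replicates, ordered by mean; points are single libraries and the bar is the mean. MMP14, PLAU and TIMP1 lead, MMP9 is lowest by mean, and the point of replicate 1 (diamond) is the highest for PLAU, MMP1 and MMP10 and the lowest for TIMP1, PLAUR, TIMP2 and MMP9, except that replicate 4 leads for PLAU and MMP1 when TPM is taken over all rows.

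MMP14, also called MT1-MMP, is a membrane-anchored collagenase that also opens the precursor of MMP2 at the cell surface. It lies on chromosome 14 from 23305742 to 23316809 on the plus strand (hg19, as all positions of genes here). Its level was 216, 238, 168 and 397 TPM in replicates 1 to 4, with 5433 to 18862 counts behind the values. Replicate 4 was the highest and replicate 3 the lowest, and the mean was 255 ± 99.2 TPM (SD, n = 4), or 268 ± 117 TPM (SD, n = 3) without replicate 1. When TPM was taken over all rows, noncoding RNA included, replicate 1 was the lowest with 66.8 TPM. MMP14 was the leading gene of the 9 in replicates 2, 3 and 4 and came second to PLAU in replicate 1. Among the 23 MMP genes of the tables MMP14 took 27.4%, 50.7%, 47.7% and 51.2% of the summed TPM, so it was the leading metalloproteinase mRNA in replicates 2 to 4, while MMP28 was slightly ahead of it in replicate 1.

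MMP1 is the interstitial collagenase, which cuts fibrillar collagen and is made by migrating keratinocytes in contact with dermal collagen. The gene lies on chromosome 11 from 102660641 to 102668966 on the minus strand. MMP1 was at 127, 29.6, 23.6 and 45.1 TPM, from 6317, 404, 436 and 691 counts. Replicate 1 was thus far above the other 3, which lay within a factor of 1.91 of each other. The mean was 56.2 ± 47.7 TPM (SD, n = 4), and 32.8 ± 11.1 TPM (SD, n = 3) without replicate 1. This order depended on the scaling. Over all rows MMP1 had 39.2 TPM in replicate 1 and 42.0 TPM in replicate 4, and replicate 4 was the highest. The gene WTAPP1 covers MMP1 on the opposite strand and had 35, 1, 0 and 7 counts.

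MMP10, or stromelysin-2, has a broad range of substrates and is known from the front of migrating epidermis. It is a neighbour of MMP1 on chromosome 11, from 102641233 to 102651359 on the minus strand. The level of MMP10 was 11.6, 1.37, 2.28 and 3.36 TPM, from 494, 16, 36 and 44 counts. Replicate 1 was again the highest, here under both scalings, and the mean of 4.64 ± 4.68 TPM (SD, n = 4) became 2.33 ± 0.996 TPM (SD, n = 3) without it. MMP10 and its close paralog MMP3 can share reads, and how such reads were counted is not given in the sources used here. MMP3 itself had 1, 10, 8 and 0 counts.

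MMP9, gelatinase B, digests denatured collagen and type IV collagen of basement membranes. Its gene lies on chromosome 20 from 44637547 to 44645200 on the plus strand. MMP9 was at 0.159, 2.06, 1.33 and 1.84 TPM, from 9, 32, 28 and 32 counts. The deepest library gave the fewest counts, and the other 3 were within a factor of 1.55 of each other. The mean was 1.35 ± 0.849 TPM (SD, n = 4), or 1.74 ± 0.373 TPM (SD, n = 3) without replicate 1. An antisense gene on the opposite strand overlaps 3060 bases of MMP9 and had 6, 6, 1 and 14 counts, so at this depth reads of the 2 genes may be mixed if the counting did not use strand, which is not stated.

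MMP1 and MMP10 belong to a run of 9 MMP genes on chromosome 11 between positions 102391239 and 102826463, a span of 435 kb. Within this cluster 5 genes had a mean above 1 TPM, and MMP8 and MMP27 were at 0 counts in every replicate. MMP13, collagenase-3, was at 145, 12.2, 13.3 and 38.5 TPM, and MMP12, the macrophage elastase, at 32.1, 0.641, 0.770 and 3.43 TPM. In both, as in MMP1 and MMP10, replicate 1 was the highest and replicate 4 the next, an order that over all rows turned for MMP1 alone of the 4. MMP7, or matrilysin, at the far end of the cluster, had the opposite order, with 2.23, 13.1, 18.2 and 7.04 TPM and replicate 1 the lowest. MMP20 had at most 3 counts in any replicate. The 9 genes together made up 40.3%, 12.4%, 16.6% and 12.6% of the summed MMP TPM, a share that does not depend on the scaling of a library.

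**Figure D2:**
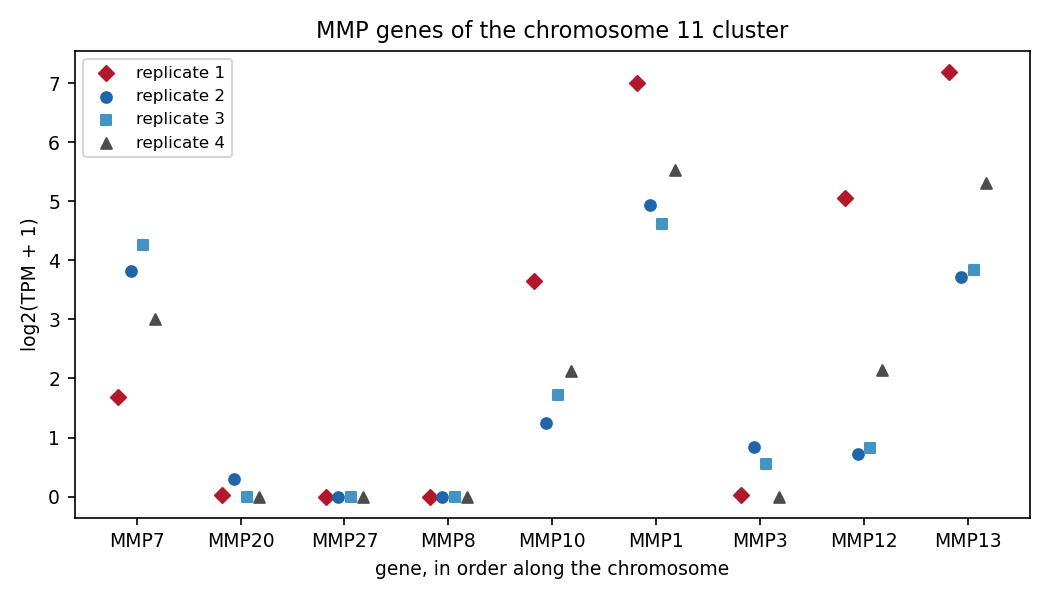
Level as log2(TPM + 1) of the 9 MMP genes of the chromosome 11 cluster, in their order along the chromosome, with 1 point per replicate. Replicate 1 (diamond) is the highest for MMP10, MMP1, MMP12 and MMP13 (over all rows replicate 4 leads for MMP1) and the lowest for MMP7, and MMP8 and MMP27 are at 0.

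As 4 genes of the cluster were high together in replicate 1, promoters were searched for the binding letters of AP-1, the FOS and JUN dimer known to act on MMP promoters, written TGANTCA and searched on both strands, and for the TATA box letters TATAAA. The windows searched were RefSeq sequences of 250 bases before to 50 bases after a start site (GRCh38.p14). They covered 5 of the 9 genes of the main set, MMP10, MMP14, TIMP1, PLAU (with 2 windows) and PLAUR. In the cluster they covered 5 of the 9, MMP7, MMP8, MMP10, MMP20 and MMP27. The promoters of the other genes were not searched. The AP-1 letters occurred in 7.71% of the 35116 windows of this length that were kept for the search, and the TATA letters in 11.5%. Both were present in MMP10, which was highest in replicate 1, and in MMP7, which was lowest there, at nearly the same places. The AP-1 letters began at position -67 from the start site in both genes, and the TATA letters at -31 in MMP10 and -30 in MMP7. The stretches around them are shown with the motif in capitals, on the strand of the gene, because they let the 2 promoters of opposite pattern be compared.
MMP10 AP-1, chr11:102780678-102780706, minus strand: aaacacatgcaTGAATCAtactgttggtg
MMP7 AP-1, chr11:102530797-102530825, minus strand: aaacactcaaaTGAGTCAcctatttccac
MMP10 TATA, chr11:102780643-102780670, minus strand: cattgtctctgTATAAAagaaaggccac
MMP7 TATA, chr11:102530761-102530788, minus strand: ctgagaagctaTATAAAtttctgcagtc
PLAUR AP-1, chr19:43670338-43670366, minus strand: tcacaactccaTGAGTCAgggccgagcca
PLAUR, the receptor described below, is shown as the only other gene of the main set with AP-1 letters in its window, at -186, and it was lowest in replicate 1. The windows of MMP14, TIMP1 and PLAU held neither motif. In the rest of the cluster MMP20 held both, at -112 and -72, MMP8 held the TATA letters at -110, and MMP27 held neither. A match of letters is a description of the sequence and was not linked to any binding data.

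The other MMP genes placed the main set in context. Of the 19 MMP genes outside it, 8 had a mean above 1 TPM and 3 were at 0 counts in every replicate. MMP28, or epilysin, known from basal keratinocytes, was at 228, 78.2, 53.9 and 133 TPM, and MMP2, gelatinase A, was at 8.54, 32.1, 32.4 and 75.8 TPM. MMP13 came second among these genes by its mean of 52.2 TPM, but without replicate 1 its mean was 21.3 ± 14.8 TPM against 46.8 ± 25.1 TPM for MMP2 (SD, n = 3), and MMP2 was above MMP13 in each of replicates 2 to 4. MMP28 was highest and MMP2 lowest in replicate 1, though over all rows MMP28 was highest in replicate 4. MMP28 took 19.5% ± 6.31 (SD, n = 4) of the summed MMP TPM, behind MMP14 with 44.3% ± 11.3 and ahead of MMP1 with 8.72% ± 4.91. Without replicate 1 the shares were 49.9% ± 1.89 for MMP14 and 16.4% ± 0.978 for MMP28 (SD, n = 3). MMP2 took 8.61% ± 1.54 and MMP1 6.28% ± 0.441 (SD, n = 3), so that MMP2 and not MMP1 was next by mean. MMP15 took 8.09%, 6.55% and 6.64% in replicates 2 to 4. It was above MMP2 in replicate 2 and above MMP1 in replicates 2 and 4.

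**Figure D3:**
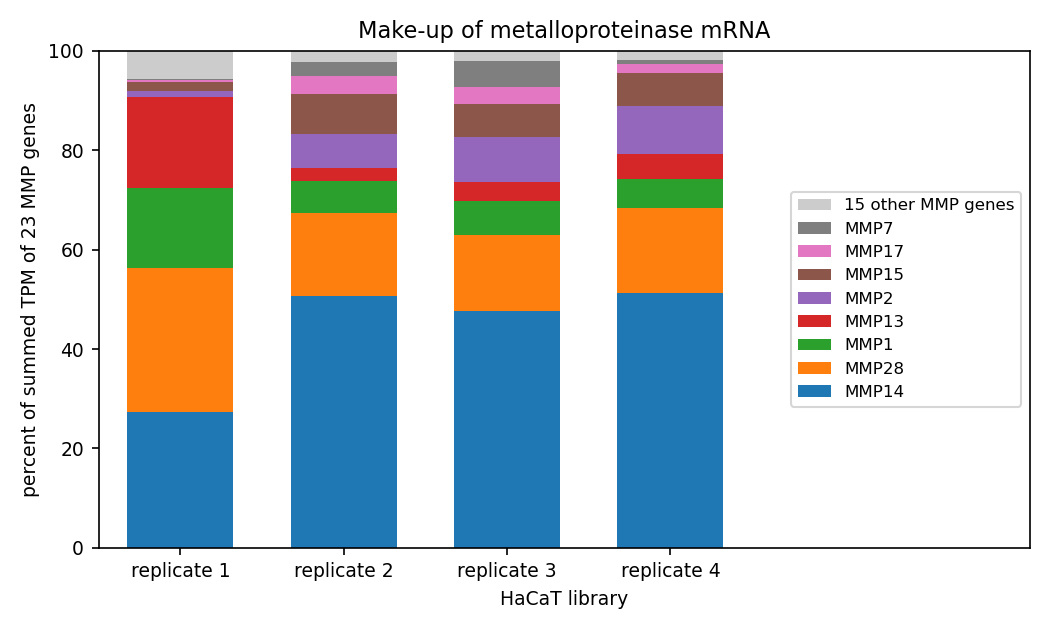
Percent of the summed TPM of 23 MMP genes taken by each gene, with 1 stacked bar per HaCaT replicate; the 15 genes with the smallest shares are joined. MMP14 takes 47.7% to 51.2% in replicates 2 to 4 and 27.4% in replicate 1, where MMP28, MMP13 and MMP1 take 28.9%, 18.4% and 16.1%.

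TIMP1 inhibits most soluble metalloproteinases and binds the precursor of MMP9. It lies on chromosome X from 47441690 to 47446190 on the plus strand, with its whole length opposite the neuronal gene SYN1. TIMP1 was at 79.6, 225, 151 and 167 TPM, from 1143 to 1771 counts. Replicate 1 was the lowest and the other 3 lay within a factor of 1.49. The mean was 156 ± 60.0 TPM (SD, n = 4), or 181 ± 39.1 TPM (SD, n = 3) without replicate 1. SYN1 had 13 to 100 counts, far fewer than TIMP1.

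TIMP2 takes part in the opening of the MMP2 precursor by MMP14 as well as in inhibition. It spans chromosome 17 from 76849059 to 76921472 on the minus strand. TIMP2 was at 10.5, 34.0, 20.8 and 31.8 TPM, from 682 to 931 counts, again with replicate 1 the lowest. The mean was 24.3 ± 10.9 TPM (SD, n = 4), or 28.9 ± 7.10 TPM (SD, n = 3) without it. An antisense gene inside TIMP2 had 2, 90, 70 and 74 counts. The share of TIMP2 counts it may hold is unknown without the strand of the counting. CEP295NL overlaps 12638 bases of the TIMP2 gene on the same strand and had 5, 9, 1 and 3 counts.

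Of the 4 further metalloproteinase inhibitors listed, 3 had a mean above 1 TPM. TIMP3, which is held in the matrix, was at 34.5, 16.7, 10.8 and 18.2 TPM and thus highest in replicate 1, unlike TIMP1 and TIMP2, but over all rows it was highest in replicate 4. TIMP4 (mean 1.15 TPM) and the membrane inhibitor RECK (mean 1.05 TPM) were near the detection limit. The 4 TIMP genes summed to 125, 277, 183 and 220 TPM and the 23 MMP genes to 788, 468, 352 and 776 TPM. MMP mRNA thus exceeded TIMP mRNA in every replicate, by a ratio of 6.30, 1.69, 1.92 and 3.53, the highest being that of replicate 1. This ratio is of mRNA and not of active enzyme and inhibitor.

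PLAU encodes urokinase, the plasminogen activator of migrating keratinocytes. The gene lies on chromosome 10 from 75670859 to 75677259 on the plus strand. PLAU was at 229.7, 167, 94.0 and 209 TPM, from 15039, 2984, 2277 and 4204 counts. Replicates 1 and 4 were the highest and replicate 3 the lowest, and the mean was 175 ± 60.0 TPM (SD, n = 4), or 157 ± 58.3 TPM (SD, n = 3) without replicate 1. Over all rows replicate 1 was the lowest, with 71.1 TPM against 82.2 to 195 TPM. The gene C10orf55 covers PLAU on the opposite strand and had 207 to 386 counts.

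PLAT encodes tissue plasminogen activator, best known from fibrinolysis in blood vessels. It spans chromosome 8 from 42032236 to 42065242 on the minus strand. PLAT was at 10.2, 23.1, 7.43 and 31.5 TPM, from 802, 495, 215 and 756 counts. Replicates 3 and 1 were low, and replicates 2 to 4 alone covered a factor of 4.24, the widest such range of the 9 genes. The mean was 18.1 ± 11.3 TPM (SD, n = 4), or 20.7 ± 12.2 TPM (SD, n = 3) without replicate 1, which over all rows was the lowest with 3.17 TPM.

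PLAUR, the receptor that holds urokinase at the cell surface, lies on chromosome 19 from 44150247 to 44174498 on the minus strand. It was at 9.43, 65.3, 49.3 and 34.3 TPM, from 461, 873, 892 and 514 counts. Replicate 1 gave the fewest counts despite its depth, and the highest and lowest replicate differed by a factor of 6.92. The mean was 39.6 ± 23.8 TPM (SD, n = 4), or 49.7 ± 15.5 TPM (SD, n = 3) without replicate 1.

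The substrate of the activators was not detected: PLG, which encodes plasminogen and is made mainly by liver, was at 0 counts in every replicate. Of the 7 genes for plasminogen and its receptors 6 had a mean above 1 TPM. ANXA2, a plasminogen and PLAT receptor, was at 3159, 3752, 4413 and 2546 TPM, KRT8 at 1095 to 3266 TPM and ENO1 at 1172 to 2209 TPM. These 3 have major roles in membranes, the cytoskeleton and glycolysis, and their levels do not measure how much reaches the cell surface.

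Of the 6 inhibitors of plasminogen activators and plasmin 5 had a mean above 1 TPM. SERPINB2, or PAI-2, an inhibitor of urokinase kept mostly inside keratinocytes, led with 166, 470, 223 and 87.6 TPM. SERPINE2, or protease nexin-1, was at 5.87, 31.5, 19.8 and 52.6 TPM. SERPINE2 was lowest in replicate 1, while SERPINB2 was lowest in replicate 4, or over all rows in replicate 1. SERPINF2, the plasmin inhibitor, and SERPINI1 had means of 2.86 and 1.66 TPM, and both were highest in replicate 1.

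The order of the 9 genes by mean was MMP14, PLAU, TIMP1, MMP1, PLAUR, TIMP2, PLAT, MMP10 and MMP9. Most neighbours in this order could not be separated. The difference of log2(TPM + 1) within a replicate, a scale that understates the ratios of low genes, had the same sign in all 4 replicates for 1 of the 8 neighbour pairs, TIMP2 over PLAT, by 0.49 ± 0.64 (SD, n = 4), and this shared sign was lost when each replicate was centred on genes of like GC content. PLAU and TIMP1 differed by 0.18 ± 0.99, and MMP1 and PLAUR by 0.46 ± 2.21, each with 2 replicates in either direction. The mean difference exceeded its SD for 3 pairs, MMP14 over PLAU (0.54 ± 0.46), TIMP1 over MMP1 (1.68 ± 1.62) and PLAT over MMP10 (1.86 ± 1.59), with 3 of 4 replicates in that direction and replicate 1 the exception in each. A two-sided exact sign-flip permutation test gave adjusted p from 0.4 to 0.875 over the 8 pairs, and with 4 replicates its smallest possible p is 0.125. Without replicate 1, 5 of the 8 pairs had the same sign in every replicate, but PLAU fell below TIMP1 and MMP1 below PLAUR.

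Pairs chosen for their function kept their direction in every replicate. PLAU was above PLAT in 4 of 4 replicates, by 4.36, 2.80, 3.50 and 2.69 on the log2 scale, with a mean of 3.34 ± 0.77 (SD, n = 4). PLAU took 86.9% to 95.7% of the summed TPM of the 2 activators, so urokinase was the main plasminogen activator mRNA of these cells. The ratio of reads per kilobase, PLAU to PLAT, was 22.4 (95% Clopper-Pearson interval 20.9 to 24.1), 7.21 (6.55 to 7.94), 12.7 (11 to 14.6) and 6.65 (6.15 to 7.19). These intervals cover counting error only. They take reads as independent molecules, which reads are not, so they may be too narrow. Those of replicates 1 and 3 overlapped neither each other nor the rest.

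PLAU was above its receptor PLAUR in 4 of 4 replicates as well, by 2.32 ± 1.59 (SD, n = 4) or 1.61 without replicate 1, and the ratio of reads per kilobase was 24.4, 2.55, 1.91 and 6.11. The ratio in replicate 1 was far from the others, with an interval of 22.2 to 26.8. PLAUR to PLAT gave 0.921 (0.819 to 1.03), 2.82 (2.53 to 3.16), 6.65 (5.72 to 7.75) and 1.09 (0.972 to 1.22). PLAUR was thus above PLAT in replicates 2 and 3. The intervals of replicates 1 and 4 include 1, so the order of receptor and tissue activator was not resolved there.

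The ratio of TIMP1 to TIMP2 had the narrowest range of the functional pairs. It was 7.59 (7.01 to 8.23), 6.63 (6.08 to 7.23), 7.26 (6.61 to 7.98) and 5.26 (4.81 to 5.75) in replicates 1 to 4. TIMP1 exceeded TIMP2 by 2.67 ± 0.21 (SD, n = 4) on the log2 scale, although both genes were lowest in replicate 1. MMP14 exceeded TIMP2, its partner at the cell surface, by 3.39 ± 0.67 (SD, n = 4), with ratios of 20.6, 6.99, 8.10 and 12.5. MMP14 to TIMP1 ranged from 1.06 (0.995 to 1.12) in replicate 2 to 2.71 in replicate 1.

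MMP10 was below MMP1 in 4 of 4 replicates, by -3.34 ± 0.32 (SD, n = 4). The ratio of MMP10 to MMP1 was 0.0914 (0.0832 to 0.10), 0.0463 (0.0262 to 0.0761), 0.0965 (0.0667 to 0.136) and 0.0744 (0.0536 to 0.101). The interval of replicate 2 did not overlap that of replicate 1, and all other intervals overlapped. MMP1 varied by a factor of 5.36 and MMP10 by 8.45 over the 4 replicates, and their ratio by 2.08. Without replicate 1 the factors were 1.91 for MMP1, 2.45 for MMP10 and again 2.08 for the ratio. The ratio was thus steadier than both genes only with replicate 1 included, and without it steadier than MMP10 alone. MMP13 to MMP1 moved more, from 0.413 in replicate 2 to 1.14 in replicate 1.

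MMP9 was below TIMP1 by 6.06 ± 0.14 (SD, n = 4), with ratios of TIMP1 to MMP9 of 502 (264 to 1099), 109 (77.1 to 161), 113 (77.8 to 171) and 91.1 (64.2 to 134). The pseudocount of 1 TPM compresses the log2 difference of a gene as low as MMP9, and the ratio of replicate 1 was above the intervals of the others. MMP14 exceeded MMP9 by 6.79 ± 0.66 (SD, n = 4). All 7 functional pairs given here kept their direction in 4 of 4 replicates, and each reached p = 0.125, the smallest that the exact sign-flip test (two-sided) allows, before and after adjustment over the 8 functional pairs tested.

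**Figure D4:**
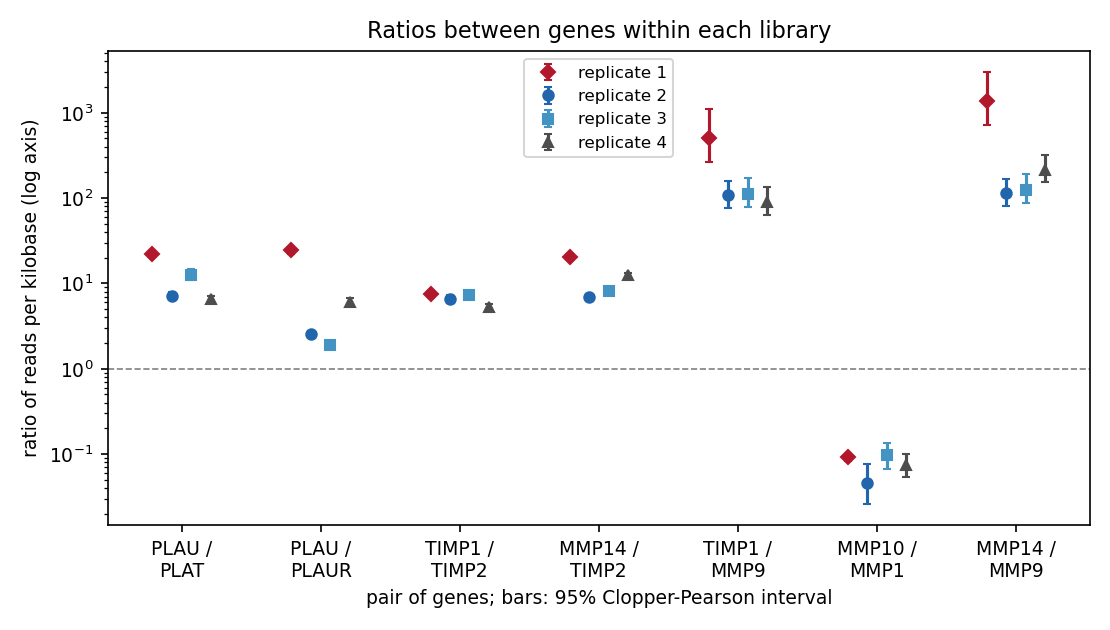
Ratio of reads per kilobase (log axis) of 7 functional pairs in each replicate; bars are 95% Clopper-Pearson intervals for counting error alone, and the dashed line marks a ratio of 1. All 4 points of a pair lie on the same side of the line, TIMP1 / TIMP2 stays between 5.26 and 7.59, and PLAU / PLAUR covers 1.91 to 24.4.

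The spread between replicates was compared with that of other genes. The SD of log2(TPM + 1) over the 4 replicates was above the median of the detected protein-coding genes for 8 of the 9, where 50% of all genes are above it by construction. MMP14, at 0.52, was the exception. The median SD was 0.74 for the 9 genes and 0.52 for all 12164 detected genes. Over replicates 2 to 4 the SD was above the median for 7 of the 9, again beside 50% of all genes, with medians of 0.46 and 0.33. MMP9 and TIMP1 were then below it. A range of at least 2-fold over replicates 2 to 4, measured in log2(TPM + 1), was found for 3 of the 9 (MMP14, PLAU and PLAT) and for 22.7% of all detected genes. In plain TPM the range of MMP10, a factor of 2.45, also passed 2-fold. With TPM over all rows, only 5 of the 9 had an SD above the median.

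In log2(TPM + 1), replicate 1 was at least 2-fold above the mean of the other replicates for 2 of the 9 genes, MMP1 and MMP10, and for 17.4% of the detected genes. It was at least 2-fold below for 4 of the 9, MMP9, TIMP1, TIMP2 and PLAUR, and for 20.1% of the detected genes. PLAT, at 0.495 of the mean TPM of the others, passed 2-fold in plain TPM but not on this scale. Its log2 difference from the mean of the others was 1.97 for MMP1, 1.96 for MMP10, 0.62 for PLAU, -0.22 for MMP14 and -0.74 for PLAT. For MMP9, TIMP1, TIMP2 and PLAUR it was -1.23, -1.16, -1.35 and -2.23. These differences are relative to the other protein-coding genes. TPM over all rows moved the median detected gene of replicate 1 by -1.56 on the log2 scale, and 0 of the 9 genes were then 2-fold above, with MMP1 at 0.45, MMP10 at 0.60 and PLAU at -0.90, while 6 were 2-fold below. The shares of all detected genes under that scaling were 1.96% above and 61.3% below, so 6 of 9 was close to the background. Size factors left both counts, 2 and 4, as they were.

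GC content moved with this difference. Across 11889 detected genes with a transcript in GENCODE release 29, Spearman's correlation of GC content with the difference of replicate 1 was -0.51, a description across genes, which are not independent replicates. MMP1 and MMP10 have the lowest GC content of the 9 genes, 43.4% and 43.7%, and the other 7 have 53.7% to 62.4%. The difference of replicate 1 minus the median of genes of like GC content was 1.36 for MMP1 and 1.60 for MMP10, at percentiles 94.9 and 96.6 of their GC bins. PLAUR was at -1.80 and percentile 9.26, and PLAU at 0.95 and percentile 86.6. In the cluster MMP12 was at 3.04, MMP13 at 2.11 and MMP7 at -2.61, although MMP7 has a GC content of 43.3%, close to that of MMP1. The part of library composition and GC content in the level of any of these genes was not tested further.

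**Figure D5:**
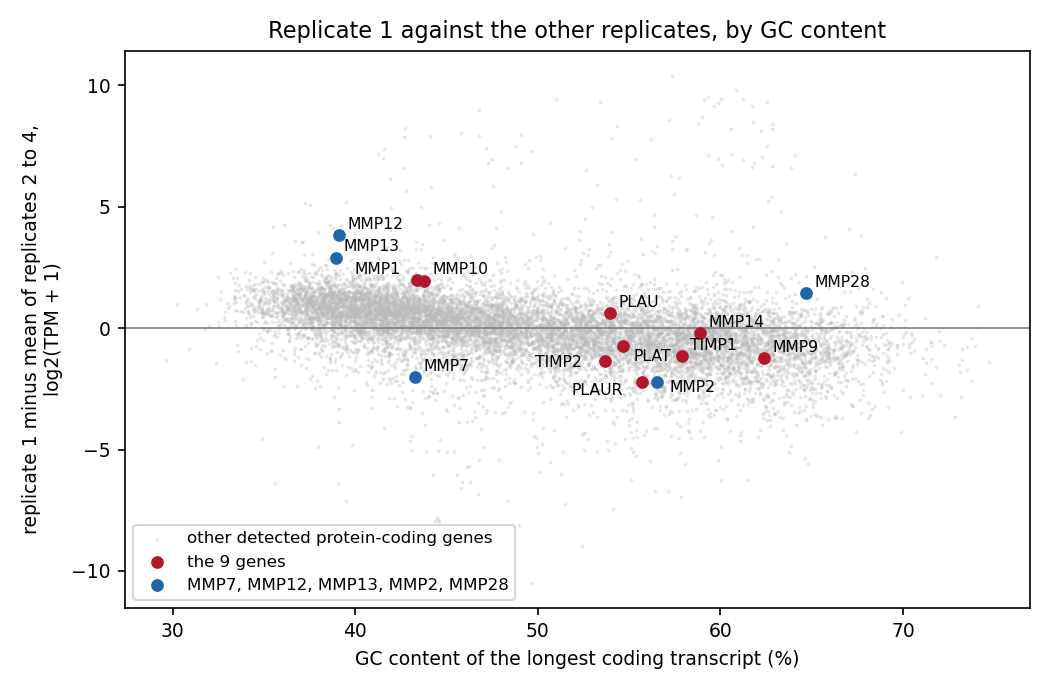
Replicate 1 minus the mean of replicates 2 to 4 in log2(TPM + 1), against the GC content of the longest coding transcript (%), with 1 grey point per detected protein-coding gene, the 9 genes in red and 5 other MMP genes in blue. The grey cloud falls with GC content, MMP1, MMP10, MMP12 and MMP13 lie above the bulk of genes of like GC content, and MMP7 and PLAUR lie below it.

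The genes whose pattern over the 4 replicates was most like that of PLAUR, which had the widest range in log2(TPM + 1), 2.67, were CTGF, CDC42EP2 and BCAR1, with root mean square differences of 0.0510, 0.0660 and 0.0802 in centred log2(TPM + 1) among 12163 genes compared. For MMP14, with the narrowest range (1.23), they were SLC9A9, MAP1LC3A and PLD3, with 0.0418, 0.0472 and 0.0511. In plain TPM MMP9 and MMP10 had wider ranges than PLAUR, by factors of 13.0 and 8.45 against 6.92. The pseudocount of 1 TPM also shapes the likeness of low genes: CTGF varied by a factor of 30.1 in TPM, and SLC9A9 by 6.03 against 2.36 for MMP14. With 4 replicates of 1 condition this likeness is a description only.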

How the data were processed

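RNA-seq of untreated HaCaT keratinocytes (4 replicates, 1 group) was analysed. The authors deposited raw read counts per gene with gene length, position and type, together with RPKM for replicates 1 and 2 and TPM for replicates 3 and 4. Both deposited units were recomputed from the counts and lengths. The submitters' processing notes name hg19, HISAT2, HISAT, TopHat2 and Bowtie2, with no role. The counting program, its strand setting and the annotation are not given in the sources used here. The serum percentage is from the labels, and the study's methods give another.

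TPM over protein-coding rows was computed in every replicate, since the deposited units differ. Rows of duplicated protein-coding symbols (4) were left out, which left 19229 genes. The detection limit was a mean above 1 TPM. Levels are mean ± SD. Differences of log2(TPM + 1) within replicates were put to an exact sign-flip permutation test (two-sided) with Benjamini-Hochberg adjustment, and count ratios have 95% Clopper-Pearson intervals. Counts of at most 3 were taken as the floor of counting. The comparison of replicate 1 with the others and the sign-flip test were tried on simulated data. These data held no trend with GC content and no shift in RNA classes. They therefore do not cover the traits in which replicate 1 stood apart.

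GC content and union exon lengths were taken by symbol from GENCODE release 29, and centring used 20 GC bins. Promoter windows are RefSeq sequences of GRCh38.p14, whereas gene positions are on hg19. The text names all 9 genes, the genes of the functional pairs, the chromosome 11 cluster, the 3 highest genes of each wider list, detected inhibitors and nearest patterns. MMP2 and MMP28 are among these, and MMP15 and the cell type markers were named after their values were seen. Of the 8 functional pairs 1 is not reported here, nor are 2 genes that this rule names. The members, lists, pairs and tests were chosen with earlier results of these data known. Alternatives were TPM over all rows, size factors, other pseudocounts, no length correction, union exon length, other detection limits, leaving out each replicate, and GC centring, which was chosen after seeing the data. No test of differential expression was possible with 1 condition. The software was SciPy 1.17.1, pandas 2.3.3 and NumPy 2.4.6 under Python 3.11.15, with matplotlib 3.10.9 for plots.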

Additional observations from a re-analysis of the deposited data

Results flagged for a closer look

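The share of the chromosome 11 cluster in the summed MMP TPM stood out in replicate 1, with 40.3% against 12.4% to 16.6% in the other 3 replicates. The gap to the nearest replicate was 0.847 of the whole range, above Dixon's 95% critical value for 4 samples. Of 25 sets of 4 values tested this way 1 was found, and chance gives about 1 in 20. Replicate 1 also held a smaller share of protein-coding counts (76.1%) and was higher for genes of low GC content (Spearman's correlation -0.51 across genes). Their part in the share of the cluster was not tested.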

How the results depend on the processing

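The 9 genes were detected and the 8 functional pairs kept 1 direction in all replicates under every alternative run for them, though TIMP1 over TIMP2 ranged from 0.71 without length correction to 2.77. The number of neighbour pairs with the same sign in every replicate, 1 as reported, was 4 without length correction, 2 with union exon length and 3 with GC centring, which was chosen after seeing the data and where TIMP2 over PLAT was no longer among them. It was 1 to 5 when each replicate was left out in turn, with 5 without replicate 1 and 2 without replicate 2. Fewer replicates make a shared sign easier to reach. PLAUR minus TIMP2 turned to -0.30 without length correction, and without replicate 1 PLAU minus TIMP1 turned to -0.26 and MMP1 minus PLAUR to -0.59. Over the replicates left out, these 2 ranged from -0.26 to 0.47 and from -0.59 to 0.99. The cause was not tested. These 2 pairs also depended on the gene length used. PLAU minus TIMP1 was 1.72 without length correction, and MMP1 minus PLAUR was 1.64 with union exon length. Each then had the same sign in every replicate. With TPM over all rows, 5 genes had an SD above the median instead of 8; leaving out each replicate gave 7 to 9. Of the wider list of 75 genes 57 were detected, 55 to 57 with 1 replicate left out, 63 above 0.1 TPM and 58 with more than 3 counts in every replicate. Size factors moved the median detected gene by -0.01, -0.10, 0.20 and -0.11 (log2) in replicates 1 to 4. No paired analysis was possible because there is 1 group. Depth limits MMP9 (9 to 32 counts) and MMP10 in replicates 2 to 4 (16 to 44 counts). The strand of counting limits MMP1, MMP9, TIMP1, TIMP2 and PLAU.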

Other observations

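Other pericellular proteases and their targets were also expressed. Of the 7 membrane serine proteases and inhibitors listed 6 had a mean above 1 TPM, led by ST14, or matriptase, with 242, 474, 451 and 481 TPM, and its inhibitors SPINT1 with 156 to 506 TPM and SPINT2 with 294 to 347 TPM. Of the 11 ADAM and ADAMTS genes 8 passed, led by ADAM15 (95.5 to 204 TPM), ADAM8 (34.5 to 190 TPM) and the sheddase ADAM10 (43.6 to 126 TPM). ADAM8 and ST14 were lowest in replicate 1, as PLAUR was, whereas ADAM10 and ADAM15 were lowest in replicate 3, or over all rows in replicate 1.

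All 10 listed activators and partners of metalloproteinases were above 1 TPM. BSG, known as a metalloproteinase inducer, had 315, 848, 758 and 776 TPM, and CAV1 had 415 to 624 TPM. LCN2, which binds MMP9, was at 61.1, 345, 416 and 479 TPM, far above MMP9 in each replicate. All 11 listed matrix substrates were above 1 TPM as well, among them LAMB3 (341 to 773 TPM), which encodes a chain of an epidermal laminin, and the hemidesmosome collagen COL17A1 (270 to 612 TPM). FN1, fibronectin, named after its values were seen, had 6.85, 169, 140 and 401 TPM, the lowest level again in replicate 1.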
